A study of Homo sapiens with 60 samples.

Results

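The genes described here are the aminoacyl-tRNA synthetases and the scaffold proteins that hold some of them together. They were taken by symbol from the deposited expression table, and each of the 39 symbols matched 1 of its 57665 genes. The list holds 20 genes for cytosolic enzymes, 16 genes for mitochondrial enzymes (the suffix 2 in their symbols) and 3 genes for scaffold proteins. The matching used symbols only, not measured values, although the list was drawn up with earlier results of these data known. All 39 genes passed the filter on low counts, which kept 18040 genes for testing.

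RNA was sequenced from U2OS, an established human osteosarcoma cell line, in which every culture, untreated ones included, carried Dmr-PERK. This construct joins a DmrB domain, which pairs up when the ligand AP20187 is added, to the kinase domain of mouse PERK, a kinase that phosphorylates eIF2 alpha and thereby turns on the integrated stress response. Untreated cells formed 2 sets of 3 libraries labelled 0 h, called set 1 and set 2 here, and each of the 18 treated groups had 3 libraries. No untreated library is labelled with a later time. In changes against untreated cells and between times, dimerizer and time in culture therefore cannot be told apart. Treated cells received the dimerizer at 0.01, 0.2 or 3 nM, the middle dose being 195 pM in the sample titles and 0.2 nM in the design text, and were taken after 1, 2, 4, 8, 16 and 24 h. The labels give the genotype of all samples as WT, do not say whether the line is 1 clone, and tie neither untreated set to a dose. Replicates were wells, with nothing said of separate cultures, so a p-value here reflects only how far these libraries spread, and that spread may be technical.

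A tRNA synthetase recognises its amino acid and the matching tRNA and joins them, which supplies the ribosome with charged tRNA. Cytosolic and mitochondrial ribosomes use separate sets of charged tRNA, and in most cases separate nuclear genes encode the enzymes for each, although GARS and KARS each encode both forms. Several cytosolic enzymes sit in a multisynthetase complex built on the scaffold proteins AIMP1, AIMP2 and EEF1E1 (also called AIMP3). Many cytosolic synthetase genes are known targets of ATF4, the transcription factor made when eIF2 alpha is phosphorylated, which binds together with C/EBP-type partners at composite DNA elements.

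Depth differed by group. The 39 libraries of untreated set 1 and of the lower and middle doses held 5598803 to 10367667 counts each, and the 21 libraries of untreated set 2 and of 3 nM held 20713981 to 28436445, so the step from 0.2 to 3 nM cannot be told apart from the step in depth. Compared with the other replicates of their groups, 2 libraries stood apart: replicate 1 at 3 nM 4 h gave a chi-square per degree of freedom of 22.3 and 23.4 (1.70 between the other two), and replicate 3 at 3 nM 2 h gave 9.62 and 8.19 (2.98). EIF2AK3, the gene for PERK, averaged 906 to 2272 TPM (a share of all transcripts, corrected for transcript length) over the 20 groups, and the files do not say where reads of the mouse kinase domain were counted. At 3 nM and 24 h, the ATF4 target ASNS rose by 3.16 and ATF4 by 1.16 on the log2 scale (edgeR, adjusted p = 3.09e-53 and 1.71e-41). DDIT3 and EIF2AK3, also looked at as checks, rose there by 1.84 and 0.91 (edgeR, adjusted p = 1.41e-35 and 2.91e-37). At 0.01 nM 24 h ASNS and ATF4 rose by 1.82 and 0.38. DDIT3 at 0.01 nM, however, was called higher at 1 and 2 h, with 0.26 and 0.44. From 4 h on it was called lower at that dose, with -1.17, -0.77, -0.47 and -0.90 at 4, 8, 16 and 24 h. Of 7 osteosarcoma markers, 6 had medians of 7.96 TPM or more over all 60 libraries and COL1A2 was near 0 at 0.237 TPM, while the blood and endothelial markers had medians of 0 to 0.320 TPM. The epithelial keratins KRT8 and KRT18 had medians of 232 and 645 TPM, EPCAM and CDH1 had 3.64 and 3.08 TPM, and KRT19 had a median of 0. COL1A1 averaged 62.3 TPM at 3 nM 24 h and 429 TPM in untreated libraries, and its part in the results was not tested. Untreated set 2 and set 1 differed at 8 of the 39 genes, against 28.9% of all genes tested, with log2 differences of -0.27 to 0.13 (set 2 over set 1). That count was 2 without replicate 2 of set 1, and 5 without replicate 3 of set 1 or without replicate 1 or 3 of set 2.

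In untreated cells the cytosolic genes were the most abundant class. Their mean levels over the 6 untreated libraries ran from 13.6 TPM for FARSB to 241 TPM for QARS, with a median of 70.4 TPM over the 20 genes. The 16 mitochondrial genes ran from 4.18 TPM for PARS2 to 62.9 TPM for IARS2, with a median of 12.7 TPM. EEF1E1, AIMP1 and AIMP2 stood at 34.8, 49.2 and 83.6 TPM. After QARS came TARS (161 TPM), SARS (153 TPM), GARS (132 TPM), KARS (124 TPM) and MARS (121 TPM), and the ranges over untreated libraries of GARS, KARS and MARS overlapped. The lowest estimated count of any of the 39 genes in a library was 33.0, for FARS2.

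Core letters of the composite element that ATF4 and its C/EBP-type partners bind were looked for in the promoters. The letters searched were TGATGNAA, and within it the narrower TGATGCAA, on both strands, in 300 bases that begin 250 bases before the gene start and end 50 bases after it (RefSeq, GRCh38.p14). RefSeq sequences were matched for 33 of the 39 genes, 16 cytosolic, 14 mitochondrial and 3 scaffold. DARS, LARS, VARS, YARS, AARS2 and VARS2 were not matched. TGATGNAA was found in 6 of 16 cytosolic promoters, in 1 of 14 mitochondrial ones and in 0 of 3 scaffold ones, against 3.67% of 27303 promoters of the same length. TGATGCAA was found in the same 6 cytosolic promoters and in no other of the 33, against 0.923% of all promoters. The stretches around the 7 matches are shown because they let the shared letters of the 6 cytosolic genes be compared directly. Each is written 5′ to 3′ on the strand of its gene, with the matched letters in capitals; in AARS, CARS, IARS, MARS and TARS the match lies on the opposite strand, so the capitals are its reverse complement.
AARS, chr16:70289660-70289719, minus strand: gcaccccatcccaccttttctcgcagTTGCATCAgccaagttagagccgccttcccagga
CARS, chr11:3057407-3057436, minus strand: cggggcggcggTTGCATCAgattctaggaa
IARS, chr9:92293698-92293736, minus strand: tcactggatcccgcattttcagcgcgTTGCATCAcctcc
MARS, chr12:57488053-57488082, plus strand: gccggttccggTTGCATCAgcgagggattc
NARS, chr18:57621804-57621833, minus strand: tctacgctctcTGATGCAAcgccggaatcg
TARS, chr5:33440956-33440985, plus strand: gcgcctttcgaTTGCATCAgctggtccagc
YARS2, chr12:32756061-32756120, minus strand: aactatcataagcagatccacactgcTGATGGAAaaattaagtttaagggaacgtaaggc
Counted from the gene start, with bases before it negative, the matches began at -187 in AARS, -2 in CARS, -13 in IARS, -4 in MARS, 15 in NARS, 3 in TARS and -197 in YARS2. In 5 of the 6 cytosolic genes the letters thus lay within 15 bases of the start. A match of letters is a description, not a binding site.

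After 24 h at 3 nM, 19 of the 20 cytosolic synthetase genes had risen and 1, QARS, had fallen, while the mitochondrial genes changed less as a class, mostly upward. The median log2 fold change against untreated cells was 1.61 for the cytosolic genes, 0.31 for the mitochondrial genes and 1.26 for the scaffold genes, beside 0.05 for all 18040 genes tested. Of the cytosolic genes 15 had risen at least 2-fold, which 10.5% of all genes did, and 1 of the 16 mitochondrial genes, MARS2, had done so. At an adjusted p below 0.05, 36 of the 39 genes were called, against 77.1% of all genes, so being called said little by itself. Called higher were 19 of 20 cytosolic, 12 of 16 mitochondrial and 3 of 3 scaffold genes, against 41.1% of all genes, and called lower were 1, 1 and 0, against 36.0%. In bulk RNA, fewer cells that express a gene and less RNA per cell cannot be told apart.

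**Figure D1:**
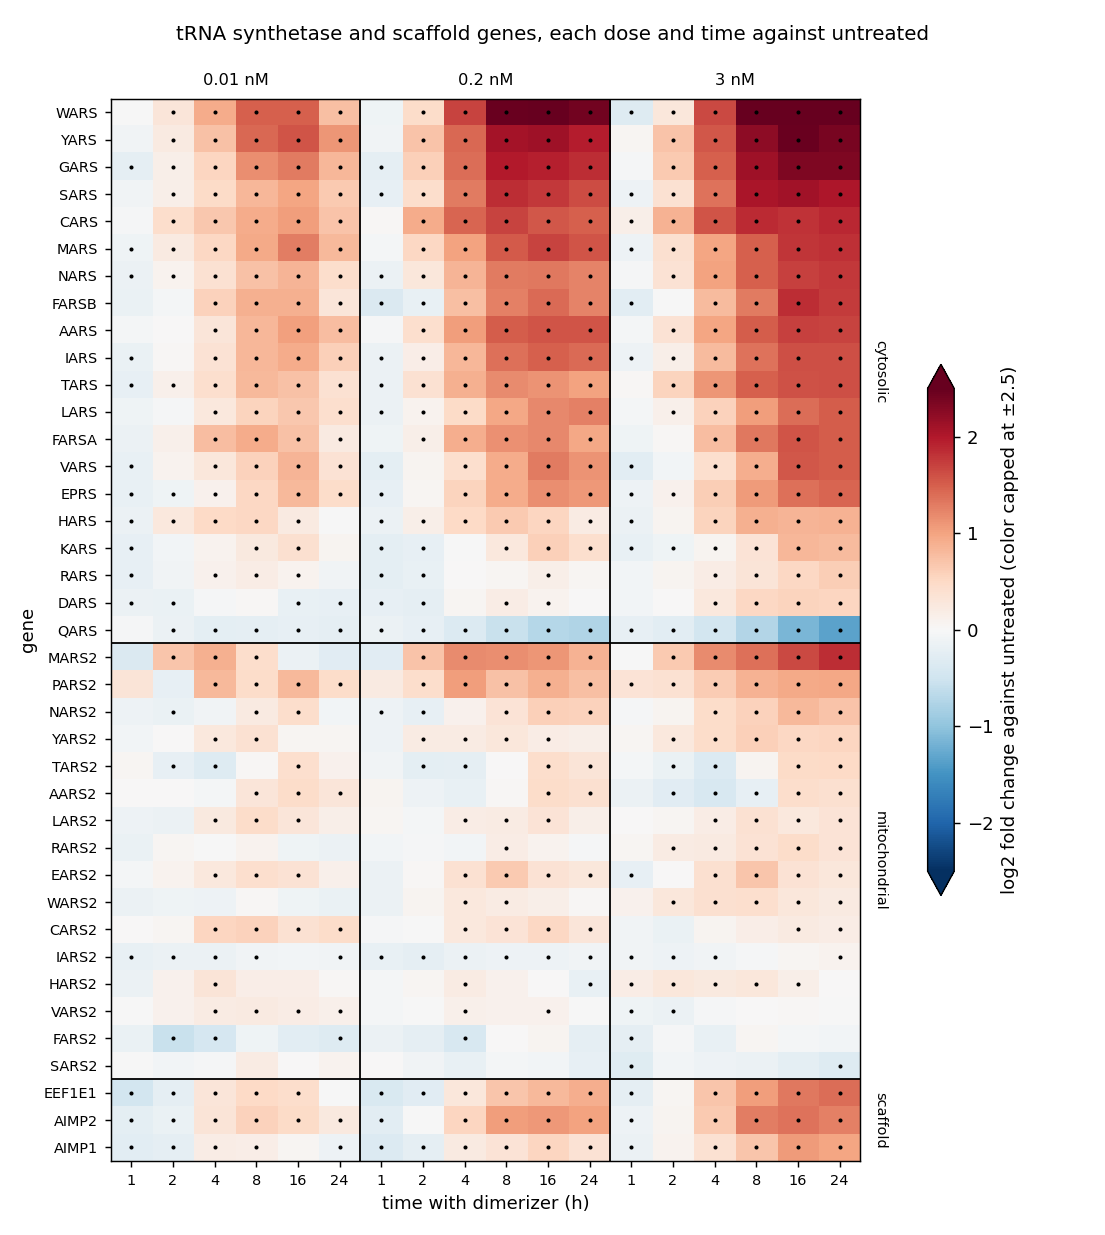
Log2 fold changes against untreated cells for the 39 genes (rows, by class) over the 3 doses and 6 times (columns, hours), with black dots on changes called at an adjusted p below 0.05 and colours capped as the scale bar shows. At 3 nM and 24 h the cytosolic rows are red for 19 of 20 genes, QARS is blue with a log2 fold change of -1.34, and the mitochondrial rows are pale except MARS2 at 1.85.

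WARS, which charges tRNA with tryptophan (chr14:100333788-100376805, minus strand), changed most. It stood at 208, 207 and 208 CPM (a share of the library's counts after TMM scaling, comparable between samples but not between genes) in the 3 nM 24 h libraries, against 26.8, 28.0 and 28.9 CPM in untreated set 1 and 26.1, 26.9 and 24.6 CPM in set 2. The groups lay far apart, and the log2 fold change was 2.95 ± 0.04 (SE; edgeR, adjusted p = 1.37e-52). YARS, the tyrosine enzyme, had 555, 562 and 545 CPM at 3 nM 24 h, against 98.2, 109 and 111 CPM in set 1 and 114, 102 and 107 CPM in set 2. Its treated libraries were all above every untreated one, with a log2 fold change of 2.37 ± 0.04 (SE; edgeR, adjusted p = 1.90e-50). GARS, the glycine enzyme, had 1098, 1116 and 1095 CPM at 3 nM 24 h, against 214, 219.5 and 218 CPM in set 1 and 232, 219 and 215 CPM in set 2. Again no library of the treated group came near the untreated ones (2.33 ± 0.03, SE; edgeR, adjusted p = 1.37e-52). SARS, the serine enzyme, had 698, 689 and 674 CPM at 3 nM 24 h, against 169, 182 and 168 CPM in set 1 and 168, 164 and 164 CPM in set 2, a log2 fold change of 2.02 ± 0.03 (SE; edgeR, adjusted p = 8.30e-54).

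Below these 4 genes, 11 cytosolic genes lay close together. CARS (cysteine) and MARS (methionine) had log2 fold changes of 1.88 and 1.82 at 3 nM 24 h, and NARS (asparagine) and FARSB, the beta subunit of the phenylalanine enzyme, had 1.76 each. AARS (alanine) had 1.68, IARS (isoleucine) and TARS (threonine) 1.61 each, LARS (leucine) 1.52, FARSA, the alpha subunit of the phenylalanine enzyme, and VARS (valine) 1.51 each, and EPRS, which carries the glutamate and proline enzymes in 1 protein, 1.46. HARS (histidine) and KARS (lysine) rose less, by 0.86 and 0.79. The 6 cytosolic genes whose promoters hold the letters shown above spanned 1.61 to 1.88 (median 1.72), inside the span of the 10 with a promoter sequence and no match, -1.34 to 2.95 (median 1.49). WARS, GARS and SARS were among those without a match in the window, which says nothing of elements elsewhere.

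Among the cytosolic genes that rose, RARS and DARS rose least. RARS, the arginine enzyme, had 157, 162 and 159 CPM at 3 nM 24 h, against 103, 94.4 and 99.3 CPM in set 1 and 111, 105 and 108 CPM in set 2 (log2 fold change 0.62 ± 0.03, SE; edgeR, adjusted p = 1.04e-26). DARS, the aspartate enzyme, had 148, 152 and 152 CPM at 3 nM 24 h, against 101, 104 and 100.4 CPM in set 1 and 107, 106 and 103 CPM in set 2 (0.54 ± 0.03, SE; edgeR, adjusted p = 1.72e-24). For both genes the treated and untreated libraries did not overlap.

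QARS, which charges tRNA with glutamine (chr3:49095932-49105135, minus strand), was the only cytosolic gene called lower at 3 nM from 4 h on, and is singled out here after its values were seen. It had 94.2, 92.5 and 87.5 CPM at 3 nM 24 h, against 241, 248 and 238 CPM in set 1 and 220.4, 219.8 and 218 CPM in set 2. The treated libraries were all below the untreated ones (log2 fold change -1.34 ± 0.03, SE; edgeR, adjusted p = 3.15e-41), a 2-fold fall that 16.4% of all genes reached. The fall grew with time at 3 nM, with log2 fold changes of -0.46, -0.74, -1.14 and -1.34 at 4, 8, 16 and 24 h. It also grew with dose at 24 h, with log2 fold changes of -0.22 at 0.01 nM, -0.76 at 0.2 nM and -1.34 at 3 nM. Between 0.2 and 3 nM, dose and depth cannot be told apart. QARS was the most abundant of the 39 genes in untreated cells by TPM (241 TPM), and averaged 93.2 TPM at 3 nM 24 h.

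**Figure D2:**
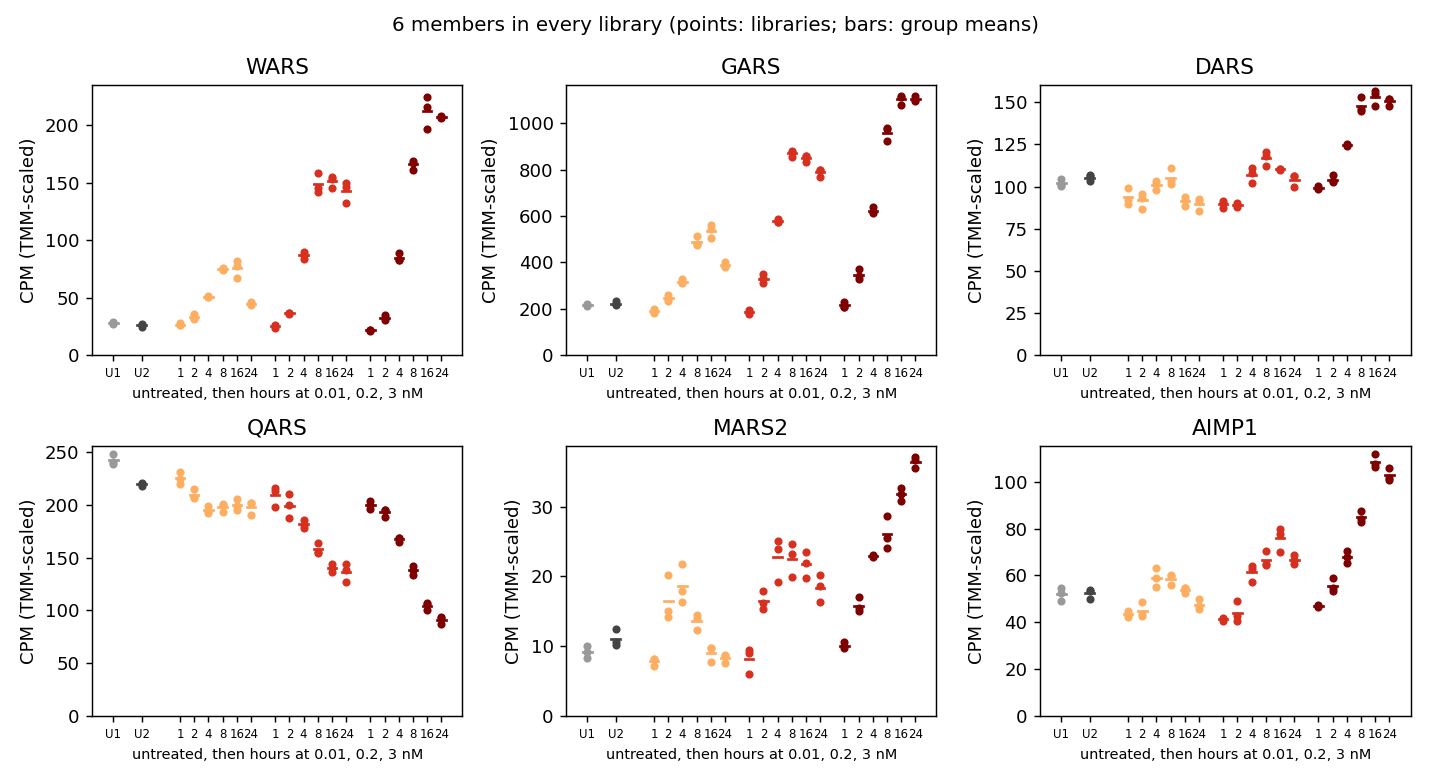
TMM-scaled CPM of 6 genes in every library (points), with untreated sets (U1, U2) on the left and then hours of treatment at each dose. WARS reaches 207 to 208 CPM at 3 nM 24 h, against 24.6 to 28.9 CPM in untreated libraries, QARS lies below its untreated libraries, and MARS2 at 0.01 nM is low at 24 h and high at 4 h.

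The cytosolic enzymes were also split by whether they belong to the multisynthetase complex. The 8 enzymes of the complex (EPRS, IARS, LARS, MARS, QARS, RARS, KARS and DARS) had a median log2 fold change of 1.12 at 3 nM 24 h, with 7 called higher and 1 lower. The other 12 had a median of 1.76, with 12 called higher, and of all genes 41.1% were called higher and 36.0% lower. The 5 lowest values of the class were those of HARS, which is outside the complex, and of KARS, RARS, DARS and QARS, all in it, whereas EPRS, IARS, LARS and MARS rose by 1.46 to 1.82. The structural classes of the enzymes gave closer medians, 1.56 for the 10 class I genes and 1.65 for the 10 class II genes. No test was made of either split.

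All 3 scaffold genes rose. EEF1E1 had 44.5, 45.8 and 44.6 CPM at 3 nM 24 h, against 19.3, 19.9 and 17.3 CPM in set 1 and 14.7, 16.2 and 15.9 CPM in set 2 (log2 fold change 1.39 ± 0.06, SE; edgeR, adjusted p = 2.77e-30). AIMP2 had 153, 161 and 148 CPM at 3 nM 24 h, against 63.3, 67.5 and 65.7 CPM in set 1 and 63.7, 60.5 and 64.4 CPM in set 2 (1.26 ± 0.04, SE; edgeR, adjusted p = 1.67e-35). For both, every treated library exceeded every untreated one. AIMP1 had 106, 101 and 101 CPM at 3 nM 24 h, against 49.1, 54.5 and 52.6 CPM in set 1 and 53.8, 53.3 and 50.0 CPM in set 2 (0.98 ± 0.04, SE; edgeR, adjusted p = 2.65e-30). The untreated sets themselves differed for EEF1E1, by -0.27 for set 2 against set 1, and its change was 1.26 against set 1 alone and 1.53 against set 2 alone. Exons of EEF1E1 share 393 bases on the same strand with the readthrough gene EEF1E1-BLOC1S5, so its counts are uncertain to that extent.

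Most mitochondrial genes moved little, and MARS2 stood apart from them. MARS2, the mitochondrial methionine enzyme (chr2:197705369-197708387, plus strand), had 37.2, 35.5 and 36.7 CPM at 3 nM 24 h, against 9.97, 8.26 and 9.20 CPM in set 1 and 12.5, 10.6 and 10.1 CPM in set 2. Its lowest treated library was well above its highest untreated one (log2 fold change 1.85 ± 0.08, SE; edgeR, adjusted p = 2.24e-29). PARS2, for proline, had 13.2, 12.3 and 14.4 CPM at 3 nM 24 h, against 6.90, 7.5 and 6.97 CPM in set 1 and 6.55, 7.12 and 6.21 CPM in set 2 (0.96 ± 0.10, SE; edgeR, adjusted p = 2.50e-13). NARS2, for asparagine, had 69.3, 73.6 and 70.0 CPM at 3 nM 24 h, against 45.8, 45.6 and 42.1 CPM in set 1 and 43.9, 42.3 and 41.6 CPM in set 2 (0.70 ± 0.04, SE; edgeR, adjusted p = 2.05e-25). PARS2 and NARS2 also had no overlap between treated and untreated libraries.

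The other mitochondrial genes lay between -0.33 and 0.53 at 3 nM 24 h. YARS2 and TARS2 rose by 0.53 and 0.50, and AARS2, LARS2, RARS2, EARS2, WARS2, CARS2 and IARS2 were called higher with log2 fold changes of 0.39, 0.34, 0.34, 0.29, 0.23, 0.19 and 0.08. The calls of CARS2 and IARS2 were lost with untreated set 2 alone as control (edgeR, adjusted p = 0.0509 and 0.255), and those of CARS2 and WARS2 with set 1 alone (edgeR, adjusted p = 0.124 and 0.0811). SARS2, for serine, fell by 0.33 (edgeR, adjusted p = 0.0140), but without replicate 3 of the 3 nM 24 h group the adjusted p was 0.0501, and its exons share 1492 bases on the same strand with the gene AC011455.2. FARS2, HARS2 and VARS2 were not called. HARS2 had 27.6, 25.5 and 27.9 CPM at 3 nM 24 h, against 27.9, 24.9 and 24.0 CPM in set 1 and 31.3, 25.2 and 27.9 CPM in set 2, with overlapping groups. VARS2 had 49.0, 51.9 and 49.1 CPM at 3 nM 24 h, against 50.2, 54.5 and 53.4 CPM in set 1 and 47.8, 47.8 and 47.3 CPM in set 2, also overlapping, and shares 1858 exon bases on the same strand with GTF2H4.

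By TPM summed over the genes of a class, the cytosolic transcripts reached 5269.7 ± 72.8 TPM at 3 nM 24 h, against 1852 ± 40.1 TPM in untreated set 2 and 1579 ± 47.0 TPM in set 1 (SD, n = 3 each). The mitochondrial genes summed to 359.5 ± 8.17 TPM at 3 nM 24 h, against 301 ± 4.44 TPM in set 2 and 255 ± 5.53 TPM in set 1 (SD, n = 3 each). The scaffold genes summed to 407 ± 3.74 TPM at 3 nM 24 h, against 175 ± 5.23 TPM in set 2 and 159.7 ± 1.80 TPM in set 1 (SD, n = 3 each). TPM are shares of a fixed total, and the share of counts on genes of the mitochondrial genome was 4.16% to 6.79% in treated libraries, against 5.42% to 5.57% in set 2 and 10.0% to 11.3% in set 1. Its part in the lower sums of set 1 was not tested.

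For amino acids with separate genes, the cytosolic gene and its mitochondrial partner could be set side by side in 17 pairs, of which EPRS is in 2 (with EARS2 and PARS2) and FARS2 in 2 (with FARSA and FARSB). At 3 nM 24 h the cytosolic gene had the larger log2 fold change in 16 of 17 pairs, with a median difference of 1.29. The widest gaps were those of WARS and WARS2 (2.95 and 0.23) and of SARS and SARS2 (2.02 and -0.33). The exception was methionine, where MARS had 1.82 and MARS2 had 1.85. The change of MARS2 was 1.99 against set 1 alone and 1.72 against set 2 alone. That spread is wider than the gap between MARS and MARS2, so their order is not settled. HARS and HARS2 lie head to head on chromosome 5, on opposite strands, with first bases at 140691862 and 140691426 and 437 bases of overlapping exons, so reads there may be shared unless counting used strand, which is not stated. HARS rose by 0.86 at 3 nM 24 h, and HARS2 had a log2 fold change of 0.00. Exons of MARS likewise overlap 355 bases of DDIT3 on the opposite strand.

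**Figure D3:**
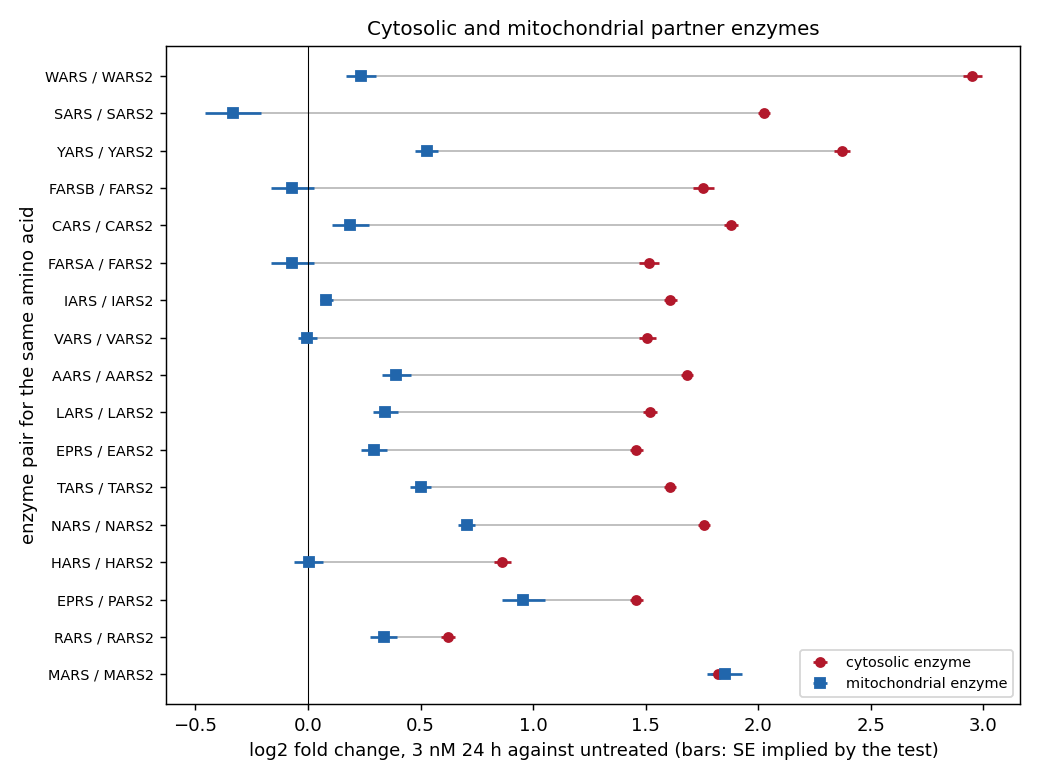
Log2 fold changes at 3 nM 24 h against untreated cells for each cytosolic gene and its mitochondrial partner, with bars for the SE from the edgeR fit, sorted by the difference. The cytosolic point lies to the right in 16 of 17 pairs, and the points of MARS (1.82) and MARS2 (1.85) nearly coincide.

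The changes of the cytosolic genes at 24 h differed between the doses, and from 0.2 to 3 nM dose and depth cannot be told apart. At 0.01 nM 15 of them were called higher and 2 lower (median log2 fold change 0.42, with 21.0% of all genes called higher and 22.2% lower), and at 0.2 nM 17 were higher and 1 lower (median 1.24, with 34.3% and 31.2% of all genes). Between doses, 0.2 nM exceeded 0.01 nM at 19 of 20 cytosolic genes with QARS lower (median difference 0.77, with 26.9% of all genes higher and 24.6% lower), and 3 nM exceeded 0.2 nM at 19 with QARS lower (median difference 0.40, with 30.6% and 25.5%). The step from 0.01 to 0.2 nM was largest for WARS at 1.67, and the step from 0.2 to 3 nM was largest for HARS at 0.65. The mitochondrial genes gave 3 higher and 2 lower of 16 at 0.2 against 0.01 nM, and 9 higher and 0 lower at 3 against 0.2 nM. That count of 9 dropped to 1 when log2 TPM was tested with limma. Of all 39 genes, 11, 11, 15, 21, 29 and 32 differed between 3 and 0.2 nM at 1, 2, 4, 8, 16 and 24 h, against 27.3%, 36.1%, 36.8%, 38.2%, 45.7% and 56.1% of all genes tested. At 1 h the count of 11 was 7 without replicate 1 and 6 without replicate 2 of the 0.2 nM group, and log2 TPM called 4, 6, 5, 8 and 19 at 1, 2, 4, 8 and 16 h. Between 0.2 and 0.01 nM 0 of the 39 differed at 1 h, against 0.759% of all genes (edgeR, with 3 at an unadjusted p below 0.05, 0 called by DESeq2 and 1 by limma on log2 TPM).

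At 24 h, genes differed in how their change was spread over the doses, with the same limit on the step from 0.2 to 3 nM. WARS had log2 fold changes of 0.75, 2.41 and 2.95 at 0.01, 0.2 and 3 nM, and YARS had 1.11, 1.97 and 2.37, so most of their rise was in place at 0.2 nM. RARS had -0.08, 0.06 and 0.62 and HARS had -0.01, 0.21 and 0.86, so most of their rise at 24 h came at the highest dose, while KARS, with 0.06, 0.43 and 0.79, had steps of 0.36 each. At 0.01 nM these 3 genes had been called higher at earlier times, HARS first at 2 h, RARS at 4 h and KARS at 8 h. AARS was nearly level between the upper doses, with 1.57 and 1.68. Of the scaffold genes at 24 h, EEF1E1 had -0.01, 0.90 and 1.39, AIMP2 had 0.25, 1.00 and 1.26, and AIMP1 had -0.13, 0.36 and 0.98. At 0.01 nM all 3 were called higher at 4 h and at 8 h (medians 0.31 and 0.49), against 25.9% and 27.8% of all genes.

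DARS, AIMP1 and IARS2 were called in opposite directions at 0.01 and 3 nM after 24 h. DARS had 92.5, 91.3 and 85.4 CPM at 0.01 nM 24 h, below all 6 untreated libraries (log2 fold change -0.21; edgeR, adjusted p = 2.66e-06). AIMP1 had 49.9, 46.7 and 45.8 CPM at 0.01 nM 24 h (-0.13; edgeR, adjusted p = 0.0348), overlapping the untreated range, and the call was lost against set 1 alone (adjusted p = 0.11). IARS2, for mitochondrial isoleucine, had 169.9, 171 and 168 CPM at 3 nM 24 h, against 151, 164 and 154 CPM in set 1 and 167, 162 and 166 CPM in set 2. At 0.01 nM 24 h IARS2 had 158, 147 and 148 CPM, and its log2 fold changes were -0.09, -0.08 and 0.08 at the 3 doses. On log2 TPM with limma the value of IARS2 at 0.01 nM turned to 0.10, and the values of DARS and AIMP1 there were no longer called.

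**Figure D4:**
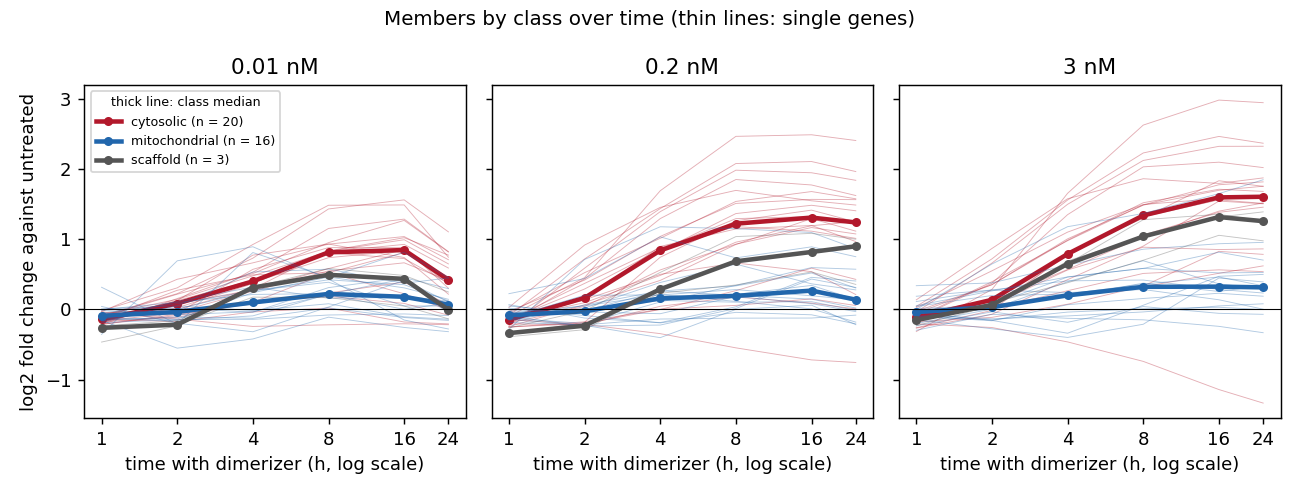
Log2 fold changes against untreated cells over time, 1 panel per dose, with thin lines for single genes and thick lines for class medians. The cytosolic median at 24 h is 0.42, 1.24 and 1.61 at 0.01, 0.2 and 3 nM, while the mitochondrial median is 0.07, 0.14 and 0.31.

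Over time, the cytosolic genes climbed between 2 and 8 h, and the lowest dose gave smaller changes from 4 h on. With untreated libraries labelled 0 h only, time with dimerizer and time in culture cannot be told apart here. At 3 nM their median log2 fold change was 0.14, 0.79, 1.34, 1.60 and 1.61 at 2, 4, 8, 16 and 24 h. At 0.2 nM it was 0.17, 0.84, 1.22, 1.31 and 1.24, and at 0.01 nM it was 0.08, 0.40, 0.82, 0.85 and 0.42 at the same times. The lowest dose thus gave its highest median at 16 h and less at 24 h. By mean CPM, 14 of the 20 cytosolic genes were highest at 16 h at 0.01 nM and 5 at 8 h, whereas at 3 nM 10 were highest at 16 h and 8 at 24 h. Mitochondrial medians stayed between 0.20 and 0.33 at 3 nM from 4 to 24 h, and scaffold medians were 0.65, 1.04, 1.32 and 1.26.

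The order in which genes were called higher also varied. At 3 nM, CARS was called at 1 h, 11 more cytosolic genes at 2 h and 7 at 4 h, and QARS at no time. At 4 h and 3 nM, WARS already had a log2 fold change of 1.66, CARS 1.58 and YARS 1.56, while KARS had 0.07 and RARS 0.19. Called higher at 4 h were 17, 16 and 19 of the 20 cytosolic genes at 0.01, 0.2 and 3 nM, against 25.9%, 30.1% and 34.9% of all genes. At 2 h the counts were 9, 13 and 12, against 21.5%, 22.4% and 27.4%. Without the library that stood apart the 3 nM counts were 18 at 4 h, where KARS lost its call (0.039; edgeR, adjusted p = 0.358), and 13 at 2 h.

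At 1 h the direction depended on the scale. Of the 39 genes, 15, 19 and 21 were called at 0.01, 0.2 and 3 nM, against 28.1%, 35.2% and 43.7% of all genes. Called lower were 11, 14 and 10 of the 20 cytosolic genes at 0.01, 0.2 and 3 nM, against 15.5%, 19.0% and 21.0% of all genes, with medians of -0.14, -0.15 and -0.11 on scaled counts that turned to 0.01, 0.03 and 0.12 on log2 TPM. The 3 scaffold genes were all called lower at 1 h at each dose, with medians of -0.26, -0.34 and -0.15 on scaled counts and -0.26, -0.062 and 0.072 on log2 TPM. The median of all genes on log2 TPM was itself 0.11, 0.18 and 0.18 at 1 h, so relative to it both classes were lower on either scale.

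From 4 to 24 h the cytosolic genes went on rising at the upper doses. At 3 nM 19 rose and QARS fell (median change 0.74, with 34.5% of all genes higher and 33.4% lower), at 0.2 nM 14 rose and 2 fell (median 0.44, with 25.6% and 26.2%), and at 0.01 nM 8 rose and 6 fell (median 0.05, with 21.9% higher and 23.2% lower). The change was larger at 3 than at 0.2 nM for 19 cytosolic genes and more negative for QARS, with a median difference of 0.33 (36.2% of all genes called in either direction). Without replicate 1 of 3 nM 4 h, 19 rose and 1 fell at 3 nM (median 0.74), and the median difference between doses was 0.34, with 19 higher and 1 lower. MARS2 showed the widest range. It had 8.58, 8.75 and 7.58 CPM at 0.01 nM 24 h, against 17.9, 16.4 and 21.8 CPM at 0.01 nM 4 h, a change of -1.17 from 4 to 24 h, whereas it changed by -0.31 at 0.2 nM and 0.67 at 3 nM.

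Genes that act on tRNA before or after charging moved in part with the synthetases. Of 26 genes for tRNA maturation and export, 19 were called higher and 2 lower at 3 nM 24 h, against 41.1% and 36.0% of all genes, with a median log2 fold change of 0.47. XPOT, which exports tRNA from the nucleus, rose by 1.94, while RPP25, a subunit of ribonuclease P, had -0.54 and was not called (edgeR, adjusted p = 0.101). Of 9 genes that edit, release or modify charged tRNA, 7 were called higher and 0 lower, against the same 41.1% and 36.0% (median 0.96). Among these, AARSD1, which clears mischarged alanine tRNA, rose by 1.38, PTRH2, a peptidyl-tRNA hydrolase, rose by 1.16, and PSTK, a kinase in the selenocysteine pathway, had 0.13 (edgeR, adjusted p = 0.275). Of 12 partners of mitochondrial translation, 9 were called higher and 1 lower, again against 41.1% and 36.0% (median 0.53). QRSL1, a subunit of the enzyme that makes mitochondrial glutamine tRNA from glutamate tRNA, rose by 1.47 and the initiation factor MTIF2 by 1.40, whereas the initiation factor MTIF3 fell by 0.19. Both these mitochondrial genes that rose exceeded every mitochondrial synthetase except MARS2.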

How the data were processed

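The authors deposited estimated counts per gene and TPM per gene for the same 60 libraries, from strand-specific total RNA libraries read on a NovaSeq, per the labels' protocols. Per the submitters' processing notes, the tools included Salmon 0.9.1 and FastQC 0.11.5 and the build was GRCh38, while the annotation release is not given in the sources used here. Positions were taken from GENCODE release 29 (GRCh38) and promoters from RefSeq (GRCh38.p14). Counts, of which 77.8% were whole within 1e-06, were rounded, and edgeR 4.0.16 (R 4.3.3) was run on them as a quasi-likelihood test after TMM scaling and filterByExpr. All 60 libraries entered 1 fit of 20 group means with 40 residual degrees of freedom and no covariate. Treated groups were set against the average of the means of untreated sets 1 and 2. Each of the 35 contrasts was adjusted over all 18040 genes by the Benjamini-Hochberg method and called at 0.05, and each SE was taken from the log2 change and its F statistic. The fit was tested on simulated data for 3 nM 24 h against untreated. It recovered 89% of 100 genes with a log2 change of 1 and 99% of 99 genes with 2. Of its calls 6.03% were false. Far fewer genes changed there than in the real data, so it cannot show how TMM scaling holds under broader change. Replicates differed by more than sampling noise (chi-square per degree of freedom 1.37 to 23.4, and at most 3.26 without 2 libraries that stood apart), with a median CV of 2.49% to 5.34% per group over the 39 genes. Alternatives were DESeq2 1.42.0, its size factors, no filter, limma 3.58.1 on log2 TPM, each untreated set alone, a replicate block, and each library left out.

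Values per library are given for the 4 cytosolic and 3 mitochondrial genes with the largest changes among those called at 3 nM 24 h, the 2 with the smallest change in each of these classes, the scaffold genes, and genes called in opposite directions at 24 h. In the cytosolic class the smallest changes are those of DARS and RARS. From each related list the 2 highest and the lowest gene are named, except 1 gene that is not reported here. The 39 genes, the lists and the tests were chosen with earlier results of these data known.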

Additional observations from a re-analysis of the deposited data

Results flagged for a closer look

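For 25 of the 39 genes the change from 4 to 24 h differed between 3 and 0.2 nM by the interaction contrast of the edgeR fit (36.2% of all genes were called), and this is what brought them here. The differences, 3 nM minus 0.2 nM on the log2 scale, were positive for 19 cytosolic genes: 0.67 for FARSA, 0.59 for HARS, 0.58 for WARS, 0.45 for FARSB, 0.38 for each of GARS, RARS and VARS, 0.37 for TARS and NARS, 0.34 for SARS, 0.32 for EPRS, 0.31 for DARS, 0.28 for KARS, YARS and MARS, 0.26 for CARS, 0.25 for IARS, 0.18 for LARS and 0.17 for AARS. QARS had -0.46. Among mitochondrial genes MARS2 had 0.98, PARS2 0.61, TARS2 0.30 and NARS2 -0.23, and of the scaffold genes AIMP1 had 0.47. HARS changed by 0.30 at 3 nM and -0.29 at 0.2 nM, and MARS2 by 0.67 at 3 nM and -0.31 at 0.2 nM, each called in both directions. Without replicate 1 of the 0.2 nM 4 h group the difference of TARS2 was 0.24 and no longer called (edgeR, adjusted p = 0.0651). All 3 nM libraries were in the deep set and all 0.2 nM libraries in the shallow one, so dose and depth cannot be told apart in this difference.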

How the results depend on the processing

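Against untreated cells, the number of the 39 genes called stayed within 1.5 times its value under each alternative, except at 1 h on log2 TPM (limma, with 1 or 0.1 TPM added), where 5 were called at 0.01 nM and 10 at 0.2 nM, against 15 and 19. Between doses log2 TPM called 1 at 0.2 against 0.01 nM at 1 h, and at 3 against 0.2 nM it called 4, 6, 5, 8 and 19 at 1, 2, 4, 8 and 16 h, against 11, 11, 15, 21 and 29. For untreated set 2 against set 1 it called 20, against 8. With no filter 18 were called at 3 against 0.2 nM at 1 h and 3 between the untreated sets. Leaving out each library gave 6 to 10 at 3 against 0.2 nM at 1 h and 2 to 9 between the untreated sets. The TPM scale also moved the median of all genes and the split of all calls: on log2(TPM + 1), 95.4% of calls were higher between the untreated sets (51.5% on scaled counts), 85.2%, 91.9% and 92.2% at 1 h at 0.01, 0.2 and 3 nM (44.8%, 46.1% and 51.8%), and 78.3% and 65.9% at 24 h at 0.01 and 0.2 nM (48.6% and 52.4%). Of the single-gene values at 4 and 24 h, their differences and the dose steps at 24 h, those that were called in either setting changed sign only on log2 TPM, and are given with 1 and then 0.1 TPM added. Values called in neither setting also changed sign elsewhere, such as DARS at 0.2 nM 24 h (-0.017 with set 2 alone). At 0.01 nM 4 h these were NARS2 (0.22 and 0.22), SARS2 (0.42 and 0.44) and TARS2 (0.020 and 0.020), and at 0.01 nM 24 h HARS (0.14 and 0.15), RARS (0.14 and 0.15) and IARS2 (0.10 and 0.11). At 0.2 nM 4 h they were KARS (0.18 and 0.18), IARS2 (0.062 and 0.063) and TARS2 (0.11 and 0.12), and at 0.2 nM 24 h HARS2 (0.10 and 0.11), IARS2 (0.068 and 0.069) and RARS2 (0.23 and 0.24). For 3 against 0.2 nM at 24 h it was HARS2 (-0.022 and -0.024), for 24 against 4 h at 0.2 nM VARS2 (0.0027 and 0.0028), and for 24 against 4 h at 3 nM LARS2 (-0.0081 and -0.0088). The cause was not tested. The replicate block called 36 genes at 3 nM 24 h, the same number as without it, and ended 1 call of a single gene. Same-numbered libraries of different groups had correlations of -0.39 to 0.39 (median 0.02), with 93 of 570 over 0.1. Libraries with different numbers had -0.36 to 0.29 (median -0.008), with 101 of 1140 over 0.1. The share over 0.1 was thus larger for the same number, and its cause was not tested. Depth limits the low genes, of which MARS2, PARS2, SARS2, FARS2 and CARS2 had the fewest counts.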
